A study of Mus musculus with 43 samples.

Results

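The genes described here encode 10 secreted products of the small intestinal epithelium. Of these, 4 are products of Paneth cells (Lyz1, Mmp7, Ang4 and Itln1) and 6 are products of goblet cells (Muc2, Tff3, Fcgbp, Agr2, Spink4 and Clca1). They were chosen by symbol. All 10 symbols have a row among the 23951 genes of the 3 bulk RNA-seq tables and among the 54307 gene rows of the 7 single-cell libraries. The study measured mouse intestinal organoids, cultures of intestinal epithelium grown from primary C57BL/6 wild-type tissue, with and without irradiation and TGFB1. Bulk RNA was measured in 18 libraries, 3 each of vehicle and of 2 ng/mL TGFB1 (24 h from day 6) in 3 settings. Organoids of the first setting were left without irradiation until day 7 (D7 non-IR). Those of the others received 4 Gy on day 4 and were harvested at day 7 (D7 IR) or at day 11 (D11). Single-cell RNA was measured in organoids that received the same 4 Gy and were harvested at day 8 after 0, 6, 15 or 24 h of 1 ng/mL TGFB1, with 1 library per time and vehicle as 0 h. It was also measured in crypt cells of Mki67tm1.1Cle/J mice, in which a Ki67-RFP fusion marks cycling cells, with 1 library from a non-irradiated littermate and 2 libraries taken 56 h after 12 Gy to the whole body. These crypt cells came from the proximal part of the small intestine and were sorted as RFP-positive and DAPI-negative, after a 70 µm strainer for the non-irradiated sample and a 100 µm strainer for the irradiated samples.

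Paneth cells sit at the crypt base and store antimicrobial proteins in granules, while goblet cells secrete the mucus that covers the epithelium. Both arise from secretory progenitors, and intermediate cells that carry granules of both kinds are known in injured or infected intestine. Lyz1 encodes the lysozyme of Paneth granules, Mmp7 (matrilysin) the protease that activates mouse alpha-defensins, Ang4 an antimicrobial ribonuclease and Itln1 (intelectin) a lectin that binds microbial sugars. Muc2 encodes the gel-forming mucin of the intestine, Fcgbp a mucus protein that is secreted with it, Tff3 a trefoil peptide of mucus repair, Agr2 a disulfide isomerase that mucin folding needs, Spink4 a Kazal-type inhibitor peptide of goblet cells, and Clca1 a secreted metalloprotease of mucus.

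The bulk values are FPKM, which are scaled by transcript length and library size, and the read depth of the bulk libraries is unknown. The libraries summed to 447728 to 621996 FPKM and had 11040 to 11361 genes above 1 FPKM. The single-cell libraries held 12344800 to 32430900 UMIs in 699 to 4283 kept cells, with median depths of 6709 to 14399 UMIs per cell, and no pair of libraries shared more than 1 cell barcode. Nothing in the labels says that the 3 libraries of a bulk group came from separate cultures or animals, so p-values measure the spread between these libraries, which may be technical. The 3 bulk tables differed in more than the named conditions. Pla2g2a, a phospholipase of Paneth granules whose gene carries an inactivating mutation in C57BL/6 mice, stood at 4814.69 ± 223 FPKM (SD, n = 3) in D7 non-IR vehicle libraries, 43.2 ± 3.38 in D7 IR and 41.1 ± 6.07 in D11. In the single-cell libraries it stood at 0.731 to 1.70 CPM (UMIs scaled to a common library total) in irradiated organoids and 1.36 CPM in non-irradiated crypt cells. Cd74, an antigen presentation gene, was at 24.3 to 89.4 FPKM in the D7 non-IR table and at 0.157 to 3.03 FPKM in the others. Irradiation therefore cannot be told apart from other differences between the D7 non-IR table and the irradiated tables, and levels across tables are given without a test.

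The symbol Clca1 names different genes in the different files. In RefSeq, Clca1 is an older symbol of Clca3a1, and Clca3 is an older symbol of the goblet gene now called Clca1 (gob-5). The bulk tables hold rows named Clca1 to Clca6, an older naming, so both their Clca1 row and their Clca3 row are given. The single-cell files hold Clca1 and Clca3a1 side by side, and there Clca1 is the goblet gene.

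Lyz1 has a close copy, Lyz2, the lysozyme of macrophages, and reads can be shared between them. RefSeq windows before the transcription start (GRCm38.p6) were matched for 7 of the 10 genes, and Tff3, Spink4 and Clca1 had none. The last 130 bases before the start of Lyz1 (chr10:117292869-117292998, minus strand) and Lyz2 (chr10:117282273-117282402, minus strand) are shown because they show how alike the pair is before the start, with capitals marking the bases that differ.
Lyz1: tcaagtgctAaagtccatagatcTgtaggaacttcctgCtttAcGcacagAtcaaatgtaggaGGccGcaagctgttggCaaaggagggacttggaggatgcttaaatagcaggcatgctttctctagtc
Lyz2: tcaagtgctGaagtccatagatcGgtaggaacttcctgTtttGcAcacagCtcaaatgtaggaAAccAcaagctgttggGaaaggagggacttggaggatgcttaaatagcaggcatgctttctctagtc
Of these 130 positions 120 are identical (92.3%), and all of the last 50 are. The likeness was lower over longer windows, with 70.5% of the last 200 bases and 60.8% of the last 250 identical without gaps. These bases lie before the transcript, so they do not measure how many reads the pair can share. The likeness of the transcripts was not measured. Lyz2 stood at 0.215 to 9.27 FPKM in the 18 bulk libraries, where Lyz1 stood at 948 to 3091 FPKM. In the single-cell libraries Lyz2 stood at 0.466 to 1.00 CPM. Cell entries that are not whole numbers held 0.403 to 1.73% of Lyz1 UMIs in organoids, 4.30% in non-irradiated crypt cells, 9.77% in irradiated replicate 1 and 43.9% in irradiated replicate 2. The fractions themselves were small, since rounding such entries down left 2433 of 2436 Lyz1 UMIs in irradiated replicate 2.

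The 250 bases before the start are shown for Mmp7 (chr9:7691840-7692089, plus strand), the member with the largest rise under TGFB1, and for Muc2 (chr7:141690090-141690339, plus strand), the mucin itself. Capitals mark matches to TATAAA, the TATA box letters, and to CAGCTG, an E-box of the kind that ATOH1 binds.
Mmp7: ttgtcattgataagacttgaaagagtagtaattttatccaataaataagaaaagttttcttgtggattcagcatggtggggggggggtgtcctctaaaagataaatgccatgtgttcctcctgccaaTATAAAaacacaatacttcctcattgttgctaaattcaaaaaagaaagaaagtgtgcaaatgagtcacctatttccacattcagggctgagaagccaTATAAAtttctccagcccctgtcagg
Muc2: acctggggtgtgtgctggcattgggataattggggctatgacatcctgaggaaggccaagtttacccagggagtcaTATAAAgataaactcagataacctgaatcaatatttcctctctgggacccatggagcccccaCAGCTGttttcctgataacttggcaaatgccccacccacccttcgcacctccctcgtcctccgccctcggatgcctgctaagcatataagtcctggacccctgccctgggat
Both strands of the 7 windows were searched for TATAAA and CAGCTG. They were also searched for CTTTGA, letters bound by TCF and LEF factors, and for GTCTAGAC, letters bound by SMADs. Mmp7 holds TATAAA at 26 to 21 and at 123 to 118 bases before its start. Muc2 holds TATAAA at 174 to 169 and CAGCTG at 112 to 107 bases before its start, and Fcgbp holds CAGCTG at 208 to 203. Of 32851 RefSeq windows of that length, 12.4% hold TATAAA and 13.0% hold CAGCTG. The letters CTTTGA, which 13.8% of windows hold, and GTCTAGAC, which 0.167% hold, were not among the letters of the 7 windows. A match is a description of the letters and not evidence of a bound site.

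Without TGFB1 or irradiation, the 10 genes together made up 2.02% ± 0.0254 (SD, n = 3) of all FPKM in the library. Tff3 was the highest, with 3172, 3231 and 3133 FPKM, 8th of all genes by its mean level. Spink4 followed with 2507, 2796 and 2618 FPKM, at rank 9, then Lyz1 with 1679, 1675 and 1648 FPKM, at rank 23. Tff3 and Spink4 together therefore carried most of the goblet signal, and Muc2, the mucin itself, stood at 17.1, 18.4 and 18.02 FPKM, at rank 4857. Tff3 alone was 29.8% of the summed FPKM of the 10, Spink4 24.7% and Lyz1 15.6%. The Clca1 row stood at 1.98 to 2.21 FPKM and the Clca3 row, the goblet gene, at 26.9 to 28.1 FPKM.

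**Figure D1:**
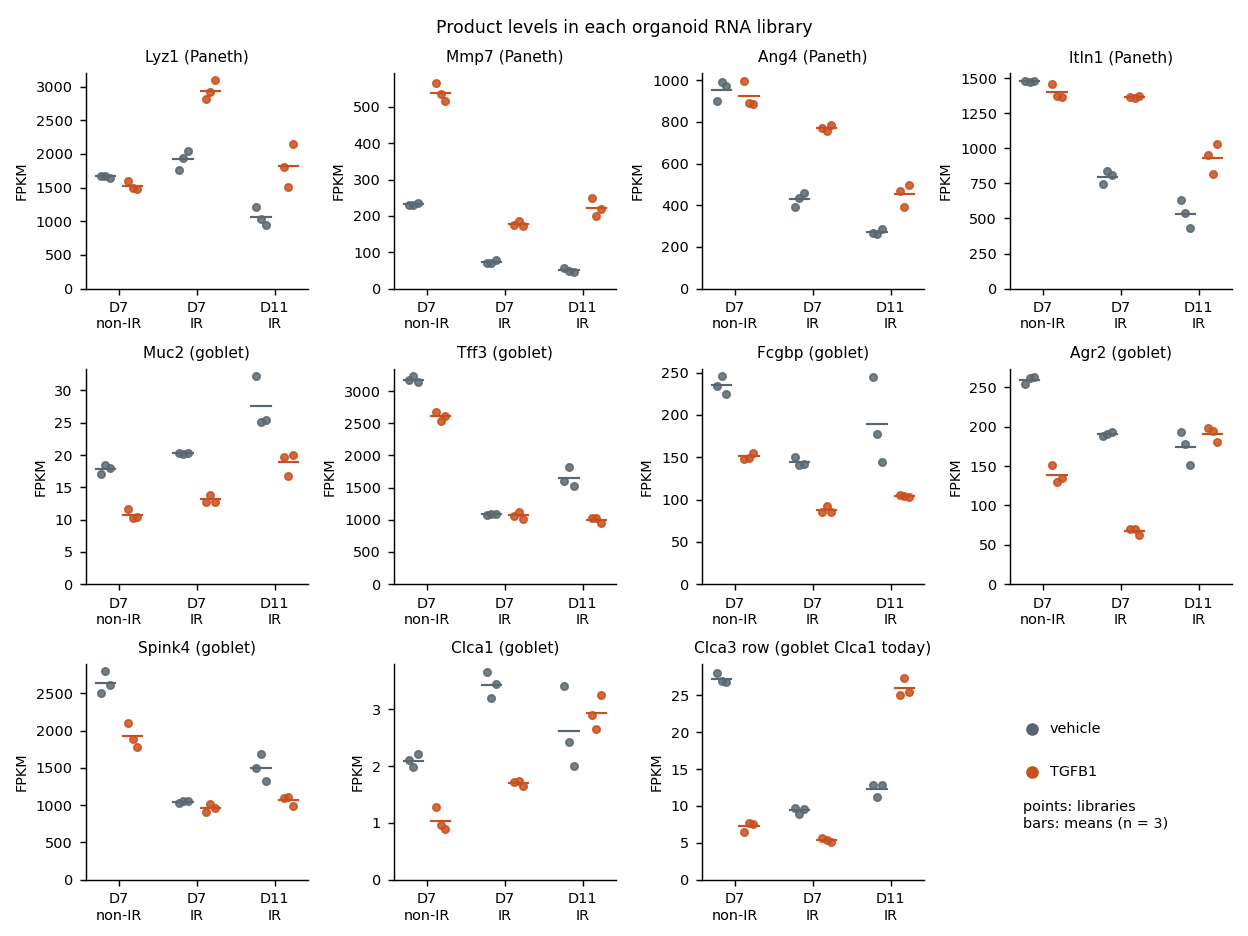
FPKM (linear axes from 0, 1 panel per row of the tables) of each secretory product and of the Clca3 row in each bulk library, with points for libraries and short lines for the means of 3 libraries, for vehicle and TGFB1 in the 3 tables. Mmp7 is higher with TGFB1 in every table, Lyz1, Ang4 and Itln1 in the irradiated tables, and the Agr2 groups overlap at D11.

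The irradiated tables differed from the D7 non-IR table in level before any TGFB1. In vehicle libraries the mean level of 4 members was at least 2-fold apart between the D7 tables. It was lower in D7 IR by 3.15-fold for Mmp7, 2.92-fold for Tff3, 2.52-fold for Spink4 and 2.23-fold for Ang4. The Clca3 row was lower too, by 2.90-fold, which makes 5 members with that row in place of the Clca1 row. How many of all genes were that far apart was not counted. Lyz1 stood 1.15-fold higher in D7 IR. The 10 genes made up 1.02% ± 0.0292 (SD, n = 3) of FPKM in D7 IR vehicle libraries. Over the 6 groups, Lyz1 was highest in D7 IR with TGFB1 (mean 2937.87 FPKM) and lowest in D11 vehicle libraries (1065.7 FPKM), and its D7 IR vehicle, D11 TGFB1 and D7 non-IR vehicle libraries each overlapped with the next in that order. Mmp7 was highest in D7 non-IR with TGFB1 (538.746 FPKM) and lowest in D11 vehicle libraries (50.3 FPKM). Muc2 had another order, highest in D11 vehicle libraries (27.6 FPKM) and lowest in D7 non-IR with TGFB1 (10.8 FPKM).

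In the D7 non-IR table, TGFB1 raised Mmp7 and lowered all 6 goblet products. With an adjusted p under 0.05 (limma on log2(FPKM + 1)) as a call, 9 of the 10 members were called, against 68.2% of the 11330 genes tested. Among goblet products 0 rose and 6 fell, beside 33.3% of all genes called higher and 34.9% called lower. Their median log2 change was −0.62, against −0.02 over all genes. Among Paneth products 1 rose, 2 fell and 1 was not called, with a median of −0.06. In bulk RNA, fewer cells of a type and less RNA per cell cannot be told apart.

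Mmp7, the protease of Paneth granules, stood at 231, 230.1 and 234 FPKM with vehicle and 566, 534 and 516 FPKM with TGFB1. All 3 TGFB1 libraries lay above all vehicle libraries, with a mean 2.32-fold higher and a log2 change of 1.21 (95% interval 1.13 to 1.29, adjusted p = 4.09e-10, limma). The other Paneth products moved little. Lyz1 fell by 0.13 on the log2 scale (adjusted p = 6.28e-03, limma), from 1648 to 1679 FPKM with vehicle to 1485 to 1605 FPKM with TGFB1, and this call was lost when all 18 libraries shared 1 fit (adjusted p = 0.327). Itln1 fell by 0.08 (adjusted p = 0.0437, limma), a call kept in 6 of 15 settings, with adjusted p up to 0.536. Ang4 stood at 902, 991 and 970 FPKM with vehicle and 996, 892 and 884 with TGFB1, groups that overlapped, with a log2 change of −0.05 (adjusted p = 0.421, limma). Under quantile normalization it was called lower (−0.15, adjusted p = 0.0110).

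Among the 6 goblet rows, Agr2, the mucin folding enzyme, had the largest fall on the log2(FPKM + 1) scale, while by the means the Clca1 row was 2.01-fold lower. Agr2 stood at 254, 262 and 264 FPKM with vehicle and 151, 129.9 and 135 FPKM with TGFB1, 1.87-fold lower by the means (log2 change −0.90, adjusted p = 6.33e-08, limma). Muc2 fell from 17.1, 18.4 and 18.02 FPKM to 11.6, 10.3 and 10.4 FPKM (log2 change −0.68, adjusted p = 1.00e-06). Fcgbp, its mucus partner, fell from 234, 246 and 225 FPKM to 148, 149 and 155 FPKM (log2 change −0.64, adjusted p = 9.31e-08). Vehicle and TGFB1 libraries did not overlap for any of these genes. The change was smaller for the most abundant goblet products. Spink4 stood at 2109, 1883 and 1784 FPKM with TGFB1 (log2 change −0.46, adjusted p = 2.14e-04, limma) and Tff3 at 2669, 2539 and 2607 FPKM (log2 change −0.29, adjusted p = 4.72e-06), below the vehicle levels given above. The Clca1 row fell by 0.61 on the log2 scale at levels of 0.885 to 2.21 FPKM (adjusted p = 1.52e-04). The Clca3 row fell more, from 28.1, 26.9 and 26.9 FPKM to 6.52, 7.69 and 7.57 FPKM (log2 change −1.78, adjusted p = 8.53e-10).

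In D7 IR organoids, TGFB1 raised all 4 Paneth products and lowered 5 of the 6 goblet products. All genes were called higher in 35.8% and lower in 39.7% of cases, 75.5% in either direction, over the 11258 genes tested. The median log2 change was 0.81 for the Paneth products, −0.65 for the goblet products and −0.03 over all genes. Every Paneth product was higher in all 3 TGFB1 libraries than in any vehicle library. The share of all genes whose groups do not overlap was not counted, for this or the other settings.

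Mmp7 stood at 69.9, 71.2 and 79.4 FPKM with vehicle and 174, 186 and 173 FPKM with TGFB1, 2.42-fold higher by the means (log2 change 1.26, adjusted p = 7.06e-09, limma). Ang4 rose from 390.05, 435 and 457 FPKM to 769, 758 and 784 FPKM (log2 change 0.85, adjusted p = 1.64e-07). Itln1 rose from 744, 839 and 812 FPKM to 1368, 1359 and 1370.5 FPKM (log2 change 0.78, adjusted p = 8.23e-08). These Paneth genes had thus risen 1.71- to 2.42-fold by the means. Lyz1 rose from 1766, 1942 and 2048 FPKM to 2810.1, 2913 and 3091 FPKM (log2 change 0.62, 95% interval 0.49 to 0.74, adjusted p = 3.17e-06), 1.53-fold by the means. Under quantile normalization the change of Lyz1 was 0.04 and the call was lost (adjusted p = 0.416).

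Agr2 had the largest fall of the goblet rows here too, from 188, 191 and 193 FPKM to 70.1, 70.4 and 63.0 FPKM, 2.81-fold by the means (log2 change −1.48, adjusted p = 9.64e-10, limma). Muc2 fell from 20.4, 20.1 and 20.4 FPKM to 12.8, 13.9 and 12.7 FPKM (log2 change −0.59, adjusted p = 1.10e-06). Fcgbp fell from 151, 140.2 and 141 FPKM to 85.1, 92.2 and 85.1 FPKM (log2 change −0.71, adjusted p = 1.36e-07). For these members every TGFB1 library lay below every vehicle library. Tff3 was not called. It stood at 1079, 1097 and 1091 FPKM with vehicle and 1065, 1119.7 and 1017 FPKM with TGFB1, groups that overlapped (log2 change −0.03, 95% interval −0.12 to 0.06, adjusted p = 0.518), and it was called lower under quantile normalization (−0.31, adjusted p = 5.12e-05). Spink4 stood at 1024, 1054 and 1059.7 FPKM with vehicle and 903, 1014 and 958 FPKM with TGFB1 (log2 change −0.13, adjusted p = 0.0249, limma). That call was lost in 5 of 15 settings, among them without vehicle replicate 2 (adjusted p = 0.0763), without vehicle replicate 3 (0.0759) and without TGFB1 replicate 1 (0.0984). The Clca1 row fell by 0.71 (adjusted p = 8.06e-06) and the Clca3 row by 0.70 (adjusted p = 1.47e-06), on the log2 scale.

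In D11 organoids, collected after the 24 h of treatment had ended, all 4 Paneth products were higher and 4 goblet products lower in the TGFB1 group. All genes were called higher in 32.3% and lower in 31.6% of cases, 63.9% in either direction, over the 11479 genes tested. The median log2 change was 0.79 for the Paneth products, −0.51 for the goblet products and 0.01 over all genes.

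Mmp7 had its largest difference at this day, with 56.7, 49.3 and 44.7 FPKM with vehicle and 249, 200.5 and 218 FPKM with TGFB1. The means were 4.42-fold apart (log2 change 2.12, 95% interval 1.87 to 2.37, adjusted p = 3.26e-07, limma). Lyz1 stood at 1211, 1038 and 948 FPKM with vehicle and 1802, 1502 and 2149 FPKM with TGFB1 (log2 change 0.76, adjusted p = 2.57e-03). Neither gene overlapped between the groups. Ang4 stood at 265, 260.3 and 287 FPKM with vehicle and 470.3, 391 and 499 FPKM with TGFB1 (log2 change 0.74, adjusted p = 3.69e-04). Itln1 stood at 633, 537 and 431 FPKM with vehicle and 952, 816 and 1033 FPKM with TGFB1 (log2 change 0.82, adjusted p = 1.37e-03), again with no overlap for either gene.

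Muc2 stood at 32.3, 25.2 and 25.5 FPKM with vehicle and 19.7, 16.8 and 20.01 FPKM with TGFB1 (log2 change −0.52, adjusted p = 2.02e-03, limma). Fcgbp stood at 244, 177 and 145 FPKM with vehicle and 106, 105 and 103 FPKM with TGFB1 (log2 change −0.81, adjusted p = 1.85e-03). Tff3 stood at 1596, 1814 and 1519 FPKM with vehicle and 1030.1, 1029.86 and 949.6 FPKM with TGFB1 (log2 change −0.71, adjusted p = 8.27e-04). These mucus genes were lower in all 3 TGFB1 libraries. Spink4 was lower by 1.41-fold (log2 change −0.49, adjusted p = 9.64e-03), a call lost under quantile normalization (adjusted p = 0.0697). Agr2 did not follow them. It stood at 193, 178 and 152 FPKM with vehicle and 199, 194 and 180.04 FPKM with TGFB1, groups that overlapped (log2 change 0.14, 95% interval −0.10 to 0.37, adjusted p = 0.282), and it was called higher under quantile normalization (0.34, adjusted p = 0.0253). The Clca1 row overlapped as well (log2 change 0.14, adjusted p = 0.421). The Clca3 row was higher with TGFB1, at 25.1, 27.4 and 25.4 FPKM against 12.9, 11.3 and 12.8 FPKM with vehicle (log2 change 1.02, adjusted p = 3.79e-06), so with that row 1 goblet product rose, 4 fell and 1 was not called.

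**Figure D2:**
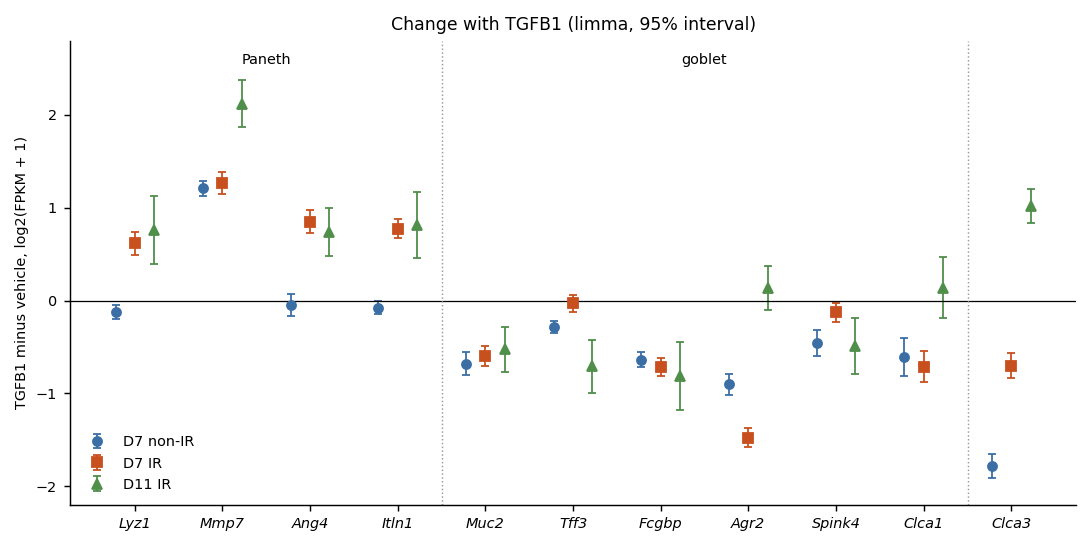
limma log2 change of FPKM + 1 (TGFB1 minus vehicle) with 95% intervals, for each secretory product in the D7 non-IR, D7 IR and D11 tables. Mmp7 lies above 0 in all 3 tables, the other Paneth products in both irradiated tables, and Muc2 and Fcgbp lie below 0 in all 3, while Agr2 lies near 0 at D11.

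The TGFB1 effect itself was compared between the D7 tables by the interaction of irradiation and TGFB1, over 11411 genes, of which 53.1% were called, 25.3% higher in D7 IR and 27.8% lower. The effect was higher in D7 IR for 3 of the 4 Paneth products. The difference was 0.74 for Lyz1 (adjusted p = 1.00e-06, limma), 0.90 for Ang4 (adjusted p = 6.44e-07) and 0.85 for Itln1 (adjusted p = 2.77e-08), on the log2 scale. For Mmp7 it was 0.05 and was not called (adjusted p = 0.544). Among goblet products, the effect was higher for Spink4 (0.33, adjusted p = 4.00e-03) and Tff3 (0.26, adjusted p = 5.50e-04), lower for Agr2 (−0.58, adjusted p = 1.53e-05), and not called for Muc2, Fcgbp and the Clca1 row. The Clca3 row gave 1.08 (adjusted p = 1.21e-07). The difference in Pla2g2a and Cd74 between these tables was as given above, and its part in the interaction was not tested.

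Between the irradiated tables, the interaction of day and TGFB1 was tested over 11456 genes, of which 64.5% were called, 31.5% higher at D11 and 33.0% lower. Of the Paneth products Mmp7 was called, with an effect 0.86 higher at D11 (adjusted p = 5.98e-05, limma), and under quantile normalization Lyz1 was called too (1.03, adjusted p = 0.0131). In the fit reported here the difference was 0.15 for Lyz1, −0.12 for Ang4 and 0.04 for Itln1 (adjusted p = 0.501, 0.458 and 0.848). Of the 6 goblet rows, Agr2 had the largest difference, with an effect 1.62 higher at D11 (adjusted p = 5.05e-08). Its TGFB1 libraries stood at 63.0 to 70.4 FPKM at D7 and 180.04 to 199 FPKM at D11, while its vehicle libraries overlapped between the days. The effect was also higher at D11 for the Clca1 row (0.85, adjusted p = 5.53e-04) and the Clca3 row (1.72, adjusted p = 5.95e-09). It was lower for Tff3 (−0.68, adjusted p = 2.30e-04), a call lost under quantile normalization (−0.17, adjusted p = 0.163). It was lower for Spink4 too (−0.36, adjusted p = 0.0292), a call lost in 8 of 21 settings and turned to 0.16 under quantile normalization. Muc2 and Fcgbp were not called (adjusted p = 0.647 and 0.660).

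The balance of the groups was described by the summed FPKM of the 4 Paneth products over that of the 6 goblet products in each library. It was 0.684 ± 0.0153 (SD, n = 3) with vehicle and 0.909 ± 0.00303 with TGFB1 in organoids of the D7 non-IR table. In D7 IR organoids it was 1.29 ± 0.0772 with vehicle and 2.3954 ± 0.140 with TGFB1. At D11 it was 0.544 ± 0.0601 with vehicle and 1.45 ± 0.277 with TGFB1. Within each table all TGFB1 libraries were above all vehicle libraries. Lyz1 makes up much of the Paneth sum, and without it the vehicle and TGFB1 means were 0.421 and 0.593 (D7 non-IR), 0.521 and 1.06 (D7 IR), and 0.242 and 0.678 (D11).

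Other genes of the same cells were taken from gene lists. Of 30 other Paneth genes in the tables, mostly alpha-defensins (near-identical copies among which reads may be split), 21 were tested in D7 non-IR, of which 2 rose and 15 fell with TGFB1 (median log2 change −0.37). In D7 IR 25 were tested, of which 15 rose and 2 fell (median 0.41). At D11 24 were tested, of which 10 rose and 6 fell (median 0.25). Defa24, an alpha-defensin, changed by −0.16 (adjusted p = 2.23e-03, limma), 0.75 (4.92e-07) and 0.22 (0.1997) in that order of tables, and Gm15284, a predicted gene, by −0.27 (7.03e-05), 0.69 (1.61e-06) and 0.92 (3.21e-04). Pla2g2a changed by −0.36 (adjusted p = 2.86e-05), 0.14 (0.0663) and −0.44 (6.77e-03).

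The list of 20 other goblet genes includes the Clca3 row, which is also given above beside the members. Of these genes, 16 were tested in D7 non-IR, with 2 higher and 7 lower (median −0.17). In D7 IR 15 were tested, with 5 higher and 10 lower (median −0.44). At D11 16 were tested, with 9 higher and 4 lower (median 0.39). Beside these counts and those of the next list, all genes were called higher in 33.3, 35.8 and 32.3% of cases in that order of tables. They were called lower in 34.9, 39.7 and 31.6%. Zg16, a mucus lectin, changed by −2.38 (adjusted p = 4.85e-10, limma), −0.57 (1.25e-05) and 0.43 (0.0429). Klk1, a tissue kallikrein, changed by −0.43 (adjusted p = 3.31e-05), −0.81 (2.56e-08) and −0.61 (1.69e-04). Muc13, a membrane mucin, changed by −0.55 (adjusted p = 6.79e-08), 0.63 (2.62e-08) and −0.97 (1.14e-04). Of 25 genes of mucin glycosylation and folding, 10 rose and 11 fell in D7 non-IR (24 tested), 7 rose and 16 fell in D7 IR, and 16 rose and 4 fell at D11. The median log2 changes of that list were −0.01, −0.22 and 0.43. Hsp90b1, a chaperone of the endoplasmic reticulum, changed by −0.36 (adjusted p = 1.15e-06, limma), −0.92 (2.24e-09) and 0.41 (4.10e-03).

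Of 9 secretory transcription factors, 8 were tested in D7 non-IR (3 higher and 3 lower), 8 in D7 IR (4 and 4) and 9 at D11 (4 and 2), beside the shares of all genes called higher and lower given above (33.3 and 34.9%, 35.8 and 39.7%, 32.3 and 31.6%). Hes1, a Notch target that opposes the secretory fate, changed by 0.08 (adjusted p = 0.0524, limma), 0.18 (1.40e-03) and −0.24 (0.0504). Sox9, which Paneth cells need, rose by 1.46, 0.81 and 0.76 on the log2 scale (adjusted p = 1.58e-10, 5.34e-08 and 3.80e-05, limma). Foxa1, a forkhead factor of secretory cells, rose by 1.36, 1.49 and 1.66 (adjusted p = 2.41e-10, 4.83e-10 and 2.77e-07). Of 11 enteroendocrine genes 2 rose and 2 fell (D7 non-IR), 11 rose (D7 IR), and 8 fell (D11), beside Paneth products that were higher in both irradiated tables. Of 8 regenerative genes 8 rose (D7 non-IR), 7 rose (D7 IR), and 7 rose and 1 fell (D11), with median log2 changes of 1.51, 1.504 and 3.38. Of 10 proliferation genes 1 rose and 7 fell (D7 non-IR), 10 fell (D7 IR), and 3 rose and 1 fell (D11). Of 12 enterocyte genes 2 rose and 10 fell in D7 non-IR, 6 rose and 5 fell in D7 IR, and 1 rose and 7 fell at D11. The part of these cell types and states in the results for the secretory products was not tested.

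Across the 18 libraries, with each table centred on its own mean, the genes whose log2(FPKM + 1) was most like that of Lyz1 were Itln1 (Pearson r 0.979), Gm15284 (0.9499), Degs1 (0.948), E430025E21Rik (0.944) and Ang4 (0.938), out of 10822 genes. For Muc2 they were Gpam (0.973), Anpep (0.968), Zhx1 (0.967), Clca2 (0.965) and Rtn4ip1 (0.962). Among members Fcgbp was at 0.948 to Muc2, Agr2 at 0.937 to the Clca1 row, and Mmp7 at 0.787 to Lyz1. These values describe libraries that share their TGFB1 treatment, and carry no p.

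The single-cell organoid libraries gave the time course of these products under TGFB1, with 1 library per time and therefore no test. Values are CPM of the summed UMIs of kept cells, and intervals (exact Poisson, 95%) cover counting error only. All 4 Paneth products were at their highest at 24 h. Mmp7 stood at 1.79 CPM (1.33 to 2.37) at 0 h, 3.85 (3.21 to 4.59) at 6 h, 10.8 (9.61 to 12.2) at 15 h and 25.4 (23.7 to 27.3) at 24 h, 14.2-fold above 0 h. The intervals of Mmp7 were apart at each time, and it was 2.15-fold above 0 h by 6 h. Lyz1 stood at 80.2, 81.6, 132 and 207 CPM, Itln1 at 52.7, 52.5, 73.4 and 87.5 CPM and Ang4 at 4.81, 7.10, 9.30 and 13.1 CPM at those times. Lyz1 and Itln1 had intervals that overlapped between 0 and 6 h and were apart from 15 h on.

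All 6 goblet products were at their lowest at 15 h. Agr2 stood at 53.5 CPM (50.8 to 56.3) at 0 h, 50.9 (48.5 to 53.4) at 6 h, 18.02 (16.4 to 19.7) at 15 h and 27.6 (25.8 to 29.6) at 24 h, 2.97-fold below 0 h at 15 h. Tff3 stood at 228, 228, 161 and 204 CPM, Fcgbp at 72.5, 69.5, 55.3 and 85.5 CPM and Spink4 at 91.9, 86.0, 77.5 and 112 CPM. Muc2 stood at 1.94 to 3.59 CPM, with no interval apart from that at 0 h. Clca1 was near absent, with 9, 9, 1 and 11 UMIs at the 4 times.

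The share of cells with at least 1 UMI was taken after thinning each cell to 2000 UMIs, since the 24 h cells were deeper (median 10441 UMIs, against 8201.5 at 0 h). Lyz1 was found in 12.7, 14.0, 22.9 and 29.4% of cells at 0, 6, 15 and 24 h (38.1, 36.7, 57.6 and 79.8% without thinning). Mmp7 was found in 0.239, 0.748, 2.53 and 4.46% of cells (1.43, 2.26, 6.57 and 15.0% without thinning). Agr2 was found in 6.79, 5.17, 3.53 and 4.82% (20.7, 13.4, 10.1 and 17.5% without thinning). Free RNA can give such UMIs. Enterocyte-like cells (cluster 0, median 7507 UMIs) should lack Lyz1, Mmp7 and Agr2. Lyz1 was found in 11.7% of them at 0 h and 23.6% at 24 h, close to its share among all cells. Mmp7 was found there in 0 of 589 cells at 0 h (upper limit 0.624%, exact binomial) and in 1.36% at 24 h, and Agr2 in 1.53 and 0.909%, both below their shares among all cells at 24 h. The top 5% of cells held 78.9 to 84.8% of Tff3 UMIs but 32.7 to 47.6% of Lyz1 UMIs.

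**Figure D3:**
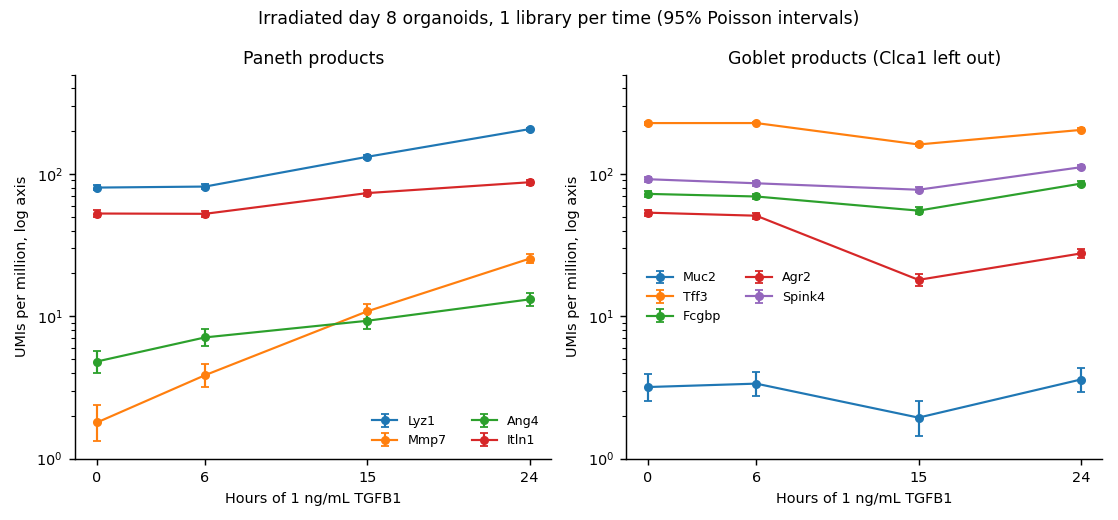
CPM (log axis) of the Paneth products (left) and goblet products without Clca1 (right) against hours of TGFB1 in the single-cell organoid libraries, with 95% Poisson intervals that cover counting error only, 1 library per time. Mmp7 goes from 1.79 to 25.4 CPM, while Agr2 goes from 53.5 to 18.02 CPM at 15 h.

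Organoid cells were clustered without the 10 genes. Cluster 12, with 259 cells (48, 82, 57 and 72 at 0, 6, 15 and 24 h), held more Tff3 UMIs than any other cluster. It was left unnamed, since its markers were highest for the tuft cell list while enteroendocrine genes (Chga, Neurog3 and Cck) were among its leading genes. No organoid cluster met the rule for Paneth-like or goblet-like cells. Cluster 12 held 53.7% of Tff3 UMIs, 43.4% of Muc2, 39.9% of Fcgbp, 36.5% of Agr2 and 34.2% of Spink4 UMIs. It held 27.3% of Mmp7 UMIs, 20.3% of Ang4, 17.6% of Lyz1 and 8.68% of Itln1 UMIs. A larger part of the UMIs of Paneth products than of these goblet products therefore lay outside it. Free RNA can give UMIs outside the cluster, and its part in these shares was not tested. Fcgbp UMIs per 100 Tff3 UMIs were 25.6 in cluster 12 but 109.5 in the enterocyte-like cluster 0. They were 92.1, 92.8 and 92.7 in the unnamed clusters 1, 3 and 7. The stem-like cluster 2 had 28.7, and the proliferation-like clusters 4 and 5 had 19.3 and 21.2. Fcgbp UMIs were therefore not spread over the clusters as Tff3 UMIs were, and their source was not tested.

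Within cluster 12, Mmp7 stood at 15.3, 66.6, 229.9 and 500.1 CPM at 0, 6, 15 and 24 h. Lyz1 stood at 955, 802, 1206 and 3313 CPM, and Ang4 at 25.9, 72.0, 190.1 and 217 CPM. These Paneth products were thus highest at 24 h in the cluster that held most of Tff3. Agr2 stood at 1324, 1586, 397 and 688 CPM and Tff3 at 9568, 8813, 5644 and 8418 CPM. Summed Paneth markers that are not among the members went from 2112 to 13623 CPM between 0 and 24 h in the cluster, and summed goblet markers from 842 to 729.9 CPM. Whether these are changes in cells or another mix of cells in the cluster was not tested.

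Outside cluster 12, Mmp7 was also higher at 24 h than at 0 h in the 3 clusters compared. In the stem-like cluster 2, Mmp7 stood at 6.64, 6.35, 20.8 and 43.6 CPM and Agr2 at 86.4, 49.0, 24.7 and 31.1 CPM. In the proliferation-like cluster 4, Mmp7 stood at 3.68, 3.85, 12.1 and 36.8 CPM and Agr2 at 80.3, 36.8, 20.2 and 26.7 CPM. In the enterocyte-like cluster 0, Mmp7 stood at 0.983, 2.17, 3.95 and 6.56 CPM and Agr2 at 6.69, 9.27, 5.20 and 7.46 CPM, low throughout. The Mmp7 values at 0 h rest on few UMIs in these clusters. Free RNA can give such UMIs, also in cells that should lack Mmp7, and its part was not tested. The unnamed cluster 9 had 2.94 Mmp7 UMIs per 100 Lyz1 UMIs at 0 h and 0 at 24 h, in 55 and 25 cells.

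**Figure D4:**
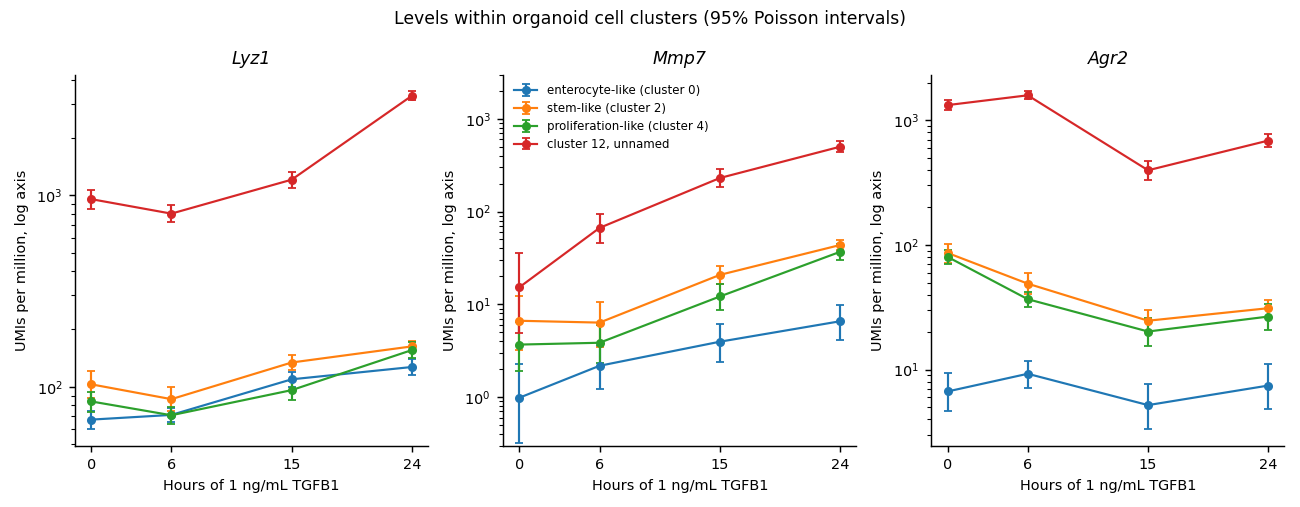
CPM (log axis) of Lyz1, Mmp7 and Agr2 against hours of TGFB1 in cluster 12, the stem-like cluster 2, the proliferation-like cluster 4 and the enterocyte-like cluster 0 of the organoids. Mmp7 is higher at 24 h than at 0 h in each of these clusters, and in cluster 12 it goes from 15.3 to 500.1 CPM.

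Cells with products of both kinds were counted at 2000 UMIs, with at least 2 of the 4 Paneth products and at least 2 of the 6 goblet products detected. Both were met in 0.716, 0.655, 1.56 and 2.39% of organoid cells at 0, 6, 15 and 24 h. Paneth-positive cells overall were 2.52, 2.50, 6.68 and 9.51% of cells. The criterion can rest on single UMIs, and the share of enterocyte-like cells with a Lyz1 UMI went from 11.7 to 23.6% over the same times, as given above. Its part in these counts was not tested. Doublets were kept (0 to 1.94% of cells were marked by Scrublet).

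In sorted Ki67-RFP crypt cells, the comparison of 1 non-irradiated library with 2 irradiated libraries has no test, and the strainers differed between the groups. Mmp7 stood at 6.05 CPM (5.14 to 7.08) without irradiation, and at 29.7 (26.9 to 32.7) and 34.99 (31.8 to 38.5) CPM after it. Agr2 stood at 212 CPM (206 to 218) without irradiation, and at 667 (653 to 681) and 472 (460.3 to 485) CPM after it. Fcgbp stood at 175 CPM without irradiation and at 105 and 63.5 CPM after it. These 3 members were at least 1.5-fold apart in the same direction in both irradiated libraries, with Mmp7 4.91- and 5.78-fold higher, Agr2 3.15- and 2.23-fold higher and Fcgbp 1.67- and 2.76-fold lower. Without irradiated replicate 2, 6 members would pass the same limit. How many of all genes pass it was not counted. Lyz1 stood at 243 CPM against 153 and 197 CPM, and Itln1 at 103 against 48.5 and 74.7 CPM. Tff3 stood at 587 against 523 and 419 CPM, and Muc2 at 18.6 against 22.5 and 23.7 CPM. Clca1, which the single-cell organoid libraries nearly lacked, stood at 16.0 CPM against 21.4 and 15.2 CPM.

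In these crypt cells, clustering without the members gave a Paneth-like cluster of 25, 4 and 3 cells (non-irradiated, irradiated replicates 1 and 2) and a goblet-like cluster of 64, 38 and 20 cells. The goblet-like cluster held 89.5% of Clca1 UMIs, 86.3% of Fcgbp, 78.4% of Muc2, 77.4% of Tff3, 74.6% of Agr2 and 69.4% of Spink4 UMIs. The Paneth-like cluster held 54.1% of Lyz1, 51.3% of Itln1 and 47.0% of Ang4 UMIs. These shares pool the 3 libraries, whose Mmp7 level differed. In the non-irradiated library the Paneth-like cluster held 50.6% of Mmp7 UMIs and the goblet-like cluster 12.2%. In irradiated replicate 1 the shares were 7.84 and 63.2%, and in replicate 2 they were 8.33 and 44.2%, where the Paneth-like cluster had 4 and 3 cells. Spink4, counted here as a goblet product, stood at 5252 CPM in Paneth-like cells and 5692 CPM in goblet-like cells.

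Within the goblet-like cells, Paneth products were higher in both irradiated libraries. Mmp7 stood at 26.3 CPM without irradiation and at 407 and 528 CPM after it. Lyz1 stood at 268 CPM against 1182 and 1588 CPM, and Ang4 at 21.5 against 141 and 343 CPM. Itln1 stood at 48.5 CPM against 300.1 and 268 CPM. The summed level of 18 other Paneth markers was not higher, with 1124 CPM without irradiation against 464 and 651 CPM after it, and Defa24 at 443 against 289 and 427 CPM. Fcgbp stood at 5476 CPM against 2055 and 1578 CPM, Tff3 at 16669.8 against 8857 and 10037 CPM, and Agr2 at 6161 against 10757 and 11034 CPM. Muc2 stood at 475 CPM against 420.1 and 657 CPM, and Clca1 at 479 against 444 and 475 CPM. The goblet-like cluster had only 64, 38 and 20 cells, and Insm1, Neurog3 and Nkx2-2 were among its leading genes. At resolution 1.2 a goblet-like cluster had 62, 31 and 17 cells and an enteroendocrine-like cluster 4, 7 and 3, in the same order of libraries. Whether these values are changes in goblet-like cells or another mix of cells was not tested. Of the other clusters, most held cells of 1 condition only. In the regenerative-like cluster 2, made of irradiated cells, Agr2 stood at 150.2 and 143 CPM and Mmp7 at 11.4 and 20.9 CPM, while the non-irradiated stem-like cluster had 34.2 and 1.91 CPM. Agr2 UMIs per 100 Tff3 UMIs were 129 in cluster 2, and also 152 and 112 in the unnamed irradiated clusters 4 and 5. They were 24.8 to 36.1 in the clusters made of non-irradiated cells. Among clusters with cells of both conditions, the goblet-like cells had 37.0 without irradiation and 121 and 110 after it. The Paneth-like cells had 35.8 without it, and 17.1 and 80.6 after it in 4 and 3 cells. The enterocyte-like cluster 7 had 57.1 in irradiated replicate 2. Free RNA can give such UMIs, and its part was not tested.

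**Figure D5:**
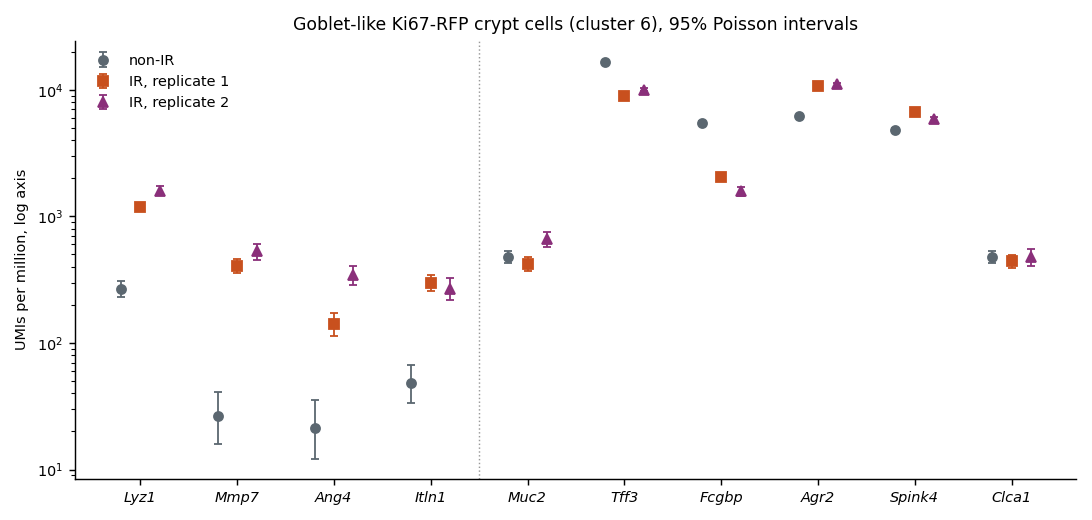
CPM (log axis) of the secretory products in the goblet-like cells of the 3 Ki67-RFP libraries (64, 38 and 20 cells), with 95% Poisson intervals that cover counting error only. The 4 Paneth products lie higher in both irradiated libraries, with Mmp7 at 407 and 528 against 26.3 CPM, while Fcgbp and Tff3 lie lower.

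Cells with products of both kinds made up 2.87% of non-irradiated crypt cells and 2.64 and 1.57% of irradiated ones at 2000 UMIs. These counts can rest on single UMIs too.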

How the data were processed

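The authors deposited bulk RNA-seq values as FPKM, 1 table per setting, and single-cell matrices as estimated counts of UMIs, with fractions where genes share a UMI. The submitters' processing notes name FastQC 0.11.3, TopHat2 2.1.0, Cuffnorm 2.2.1, Cuffdiff 2.2.1, STARsolo, STAR 2.7.10a and Salmon 1.4 without roles, and several mouse builds (mm9, GRCm39, mm39). ATAC-seq peaks were not analysed here, since the promoter windows are of another build.

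The test was limma 3.58.1 (trend, robust, two-sided) on log2(FPKM + 1) within a table, for genes averaging 1 FPKM or more, with Benjamini-Hochberg adjustment over all of them. This scale understates the change of low genes. Interactions used the 12 libraries of both tables, and replicate numbers were not treated as pairs. Kept cells had 500 UMIs or more, 250 genes or more and no more than 20% mitochondrial UMIs, and were clustered with scanpy 1.11.5 (resolution 0.6). The members, lists and tests were chosen with earlier results of these data known. Beyond the members, the text names genes among the 3 of each list with the highest mean FPKM, the 5 most like Lyz1 and Muc2, and cluster markers. Leaving clusters led by pseudogenes or small RNAs unnamed, and using the Clca3 row, were decided after the data were seen. Scripts were tested on simulated data.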

Additional observations from a re-analysis of the deposited data

Results flagged for a closer look

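The TGFB1 effect was compared between the D7 IR and D7 non-IR tables by the interaction term of limma on log2(FPKM + 1). It differed for Lyz1 (0.74), Ang4 (0.90), Itln1 (0.85), Tff3 (0.26), Spink4 (0.33), Agr2 (−0.58) and the Clca3 row (1.08). Values above 0 are effects that were higher in D7 IR, and 53.1% of all genes tested were called. Irradiation cannot be told apart from other differences between these tables. Between D7 and D11 of the irradiated organoids the TGFB1 effect differed for Mmp7 (0.86), Agr2 (1.62), the Clca1 row (0.85), the Clca3 row (1.72), Tff3 (−0.68) and Spink4 (−0.36). Here values above 0 are effects higher at D11, and 64.5% of all genes tested were called.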

How the results depend on the processing

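Over the members and alternatives that were run, 859 values kept their direction and side of the threshold, 25 lost the call, 4 gained it and 9 turned sign. Those that turned sign were Tff3 in D7 IR with 1 library left out (−0.065 to 0.0041), the irradiation interaction of Mmp7 under quantile normalization (−0.051), and day interactions. The latter were Ang4 (0.31), Fcgbp (0.0097) and Spink4 (0.16, called at −0.36 as reported) under quantile normalization, Itln1 under median-ratio scaling (−0.000159), and with 1 library left out Itln1 (−0.10 to 0.17) and Fcgbp (−0.27 to 0.10). The cause was not tested.

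With a change of at least 1.5 times also asked for, the called members were 5 in place of 9 in D7 non-IR and 3 in place of 6 for the irradiation interaction. The share of all genes that pass with this added limit was not counted. Leaving out Lyz1 took the Paneth to goblet ratio to 0.421 and 0.593 (D7 non-IR, vehicle and TGFB1), 0.521 and 1.06 (D7 IR), and 0.242 and 0.678 (D11). Leaving out an irradiated Ki67-RFP library gave 3 to 6 members. Asking for 1 product of each kind in place of 2 took cells with both to 7.30, 7.64, 11.4 and 18.4% in organoids and 10.5, 10.7 and 8.01% in crypt cells. At resolution 0.3, 62.7% of organoid Tff3 UMIs lay in 1 cluster, of 1981 cells, and 57.4% of crypt Lyz1 UMIs. At resolution 1.2 the values were 57.5% for crypt Lyz1 and 72.7% for crypt Tff3. No alternative on promoter accessibility was run.

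Libraries with the same replicate number deviated together weakly (r −0.0856 to 0.213, 4 of 9 numbers closest to their own), so the numbers were not taken as pairs. With a replicate block the called members were 9, 9, 8, 6 and 5 (D7 non-IR, D7 IR, D11, irradiation and day interactions), as without it. The bulk read depth is unknown, Clca1 and Muc2 are near the limit of the organoid cells' depth, and the single-cell libraries have no replicate per time.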
